A study of Sus scrofa with 12 samples.

Results

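Porcine oocytes and cleavage embryos carry large stores of triglyceride in lipid droplets, and 10 genes of droplet coating, triglyceride synthesis, triglyceride breakdown and fatty acid handling were read in the expression table of pig embryos depleted of cyclin B2. The genes were PLIN2, PLIN3, DGAT1, DGAT2, PNPLA2, ABHD5, LIPE, FABP3, FABP5 and CPT1A, chosen by symbol, and 10 of 10 were among the 29329 genes of the table. Of these, 9 passed the filter on low counts and were among the 17995 genes tested, and DGAT2 did not. CPT1A had 3 counts over con-2c and 14 over si-4c, so it passed the filter through the groups in which it was high.

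A lipid droplet is a core of triglyceride and sterol ester inside a phospholipid monolayer, coated by perilipins. PLIN2 covers droplets in most non-adipose cells, and PLIN3 is a perilipin that moves between cytosol and droplets. DGAT1 and DGAT2 carry out the last step of triglyceride synthesis. PNPLA2 (adipose triglyceride lipase) starts triglyceride breakdown, ABHD5 is its co-activator, and LIPE (hormone-sensitive lipase) acts on the diglyceride that results. FABP3 and FABP5 bind fatty acids in the cytosol, and CPT1A makes the acylcarnitines by which long-chain fatty acids enter mitochondria for oxidation.

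The 12 libraries came from embryos of in vitro fertilisation and fell into 4 groups of 3 by title, con-2c and con-4c for the control and si-2c and si-4c for the depleted embryos. The si embryos carried a short interfering RNA against CCNB2, the mRNA of cyclin B2, and the labels call the con embryos a blank control, while the methods of the study class them as normal embryos of a negative control group and list negative controls among the injected reagents. Both arms were embryos of in vitro fertilisation, and whether they came from the same run was not stated. No other agent or genotype was named, and each library was made from several pooled embryos, as the methods of the study state. The sources thus differ on whether the sequenced control embryos had been injected, so a difference between si and con libraries can include the injection. Title and tissue label gave opposite stages in 12 of 12 libraries, so 2c and 4c are used here as titles only. Exchanging the stages in both arms would turn the sign of every stage difference and leave the libraries compared unchanged. An exchange in a single arm would change which si and con libraries share a stage, and was not tested.

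Library totals ran from 27785233 to 39510908 counts. Genes detected numbered 18034 to 18819 in con-2c, 21181 to 21647 in con-4c, 22105 to 23279 in si-2c and 18083 to 18231 in si-4c. CCNB2, the targeted gene, stood at 443 to 487 CPM (counts scaled to a common library size) in con-2c, 429 to 510 in con-4c, 17.8 to 28.7 in si-2c and 40.3 to 46.8 in si-4c, so its level followed the si label in every library. All 11 measured oocyte and cleavage embryo markers stood at or over 1 CPM in every group, and their summed level was 22861 to 27996 CPM in con-2c, 11896 to 12500 in con-4c, 10934 to 13315 in si-2c and 25604 to 27869 in si-4c. Of the cumulus and granulosa markers, 10 of 12 were in the table and summed to 11.97 to 17.6 CPM in con-2c, 18.4 to 19.3 in con-4c, 17.9 to 19.6 in si-2c and 14.3 to 14.7 in si-4c. FOXL2, HAS2 and CYP11A1 had a count of 0 throughout con-2c, si-2c and si-4c. The 6 measured adipocyte markers summed to 0.318 to 1.01 CPM in con-2c, 1.71 to 2.91 in con-4c, 1.68 to 3.02 in si-2c and 0.567 to 1.13 in si-4c, with CIDEC at 0 in every group but si-2c, and the 4 measured sperm markers summed to at most 1.35 CPM. The oocyte sum was mostly BTG4, with group means of 18560, 7677, 7892 and 19660 CPM (con-2c, con-4c and then si-2c, si-4c). H1-8 at 3537, 2067, 1447 and 3224 CPM and OOEP at 1338, 371, 440 and 1026 moved as BTG4 did. So did ZP4 at 1123, 528, 482 and 811 CPM and, less strongly, GDF9 at 601, 467, 462 and 646. BMP15 at 887, 984, 1227 and 1045 CPM and ZP2 at 173, 143, 177 and 166 did not. The cumulus sum was carried by GATA4 at 10.6 to 13.3 CPM, lowest in con-4c, and by NR5A2 at 0.122, 6.01, 3.04 and 0.167 CPM, and the other 8 markers stood at 1.04 CPM or less in each group. LPL, at 0.0792, 1.32, 1.48 and 0.0992 CPM, made up most of the adipocyte difference. The number of genes detected, BTG4, NR5A2 and LPL moved with the groups as several lipid genes did, and their part in the differences below was not tested.

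FABP5 and CPT1A were higher in con-4c and in si-2c than in con-2c, and their si-4c level was below both con-4c and si-2c. PLIN2 had the opposite pattern, with 218 to 262 CPM in con-2c and si-4c and 126 to 133 CPM in con-4c and si-2c, and PLIN3, at a low level, fell in con-4c versus con-2c. FABP3, PNPLA2, DGAT1 and LIPE were called in no comparison, ABHD5 was highest in con-4c, and DGAT2 was too low to be tested. A gene was called where the edgeR quasi-likelihood test gave an adjusted p below 0.05 (Benjamini-Hochberg, over all genes tested) and the log2 fold change was at least 1 in size, the thresholds of the study.

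In con-4c versus con-2c, 2 of the 9 tested genes were called higher, beside 14.4% of all genes tested, and 1 was called lower, beside 3.25%. In si-2c versus con-2c, 2 were called higher (10.7% of all genes) and 0 lower (1.8%). In si-4c versus con-4c, 0 were called higher (3.12%) and 2 lower (15.8%). The comparison of si-4c with si-2c called 0 higher (1.47%) and 2 lower (11.9%). Since 9 genes are few, these counts do not set the genes apart from the background in any of the 4 comparisons. The comparisons share groups with each other, so their counts are not separate pieces of evidence. Libraries of the compared groups did not overlap for 5, 6, 7 and 3 of the 9 genes in these 4 comparisons, beside 48.6%, 41.7%, 50.9% and 42.8% of all genes.

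Without a minimum fold, 3 genes were higher (20.7% of all genes) and 2 lower (15.1%) in con-4c versus con-2c, and 2 higher (16.6%) and 2 lower (12.3%) in si-2c versus con-2c. On the same rule, 1 was higher (15.1%) and 4 lower (21.7%) in si-4c versus con-4c, and 1 higher (12.1%) and 2 lower (16.9%) in si-4c versus si-2c. The median log2 fold change of the 9 genes was 0.62, -0.22, -0.33 and -0.0099 in these comparisons, against 0.11, 0.12, -0.11 and -0.13 over all genes tested. With libraries scaled by their totals alone it was 0.88, 0.16, -0.59 and -0.38, against 0.38, 0.52, -0.37 and -0.51 over all genes, so its sign in si-2c versus con-2c depended on the scaling.

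**Figure D1:**
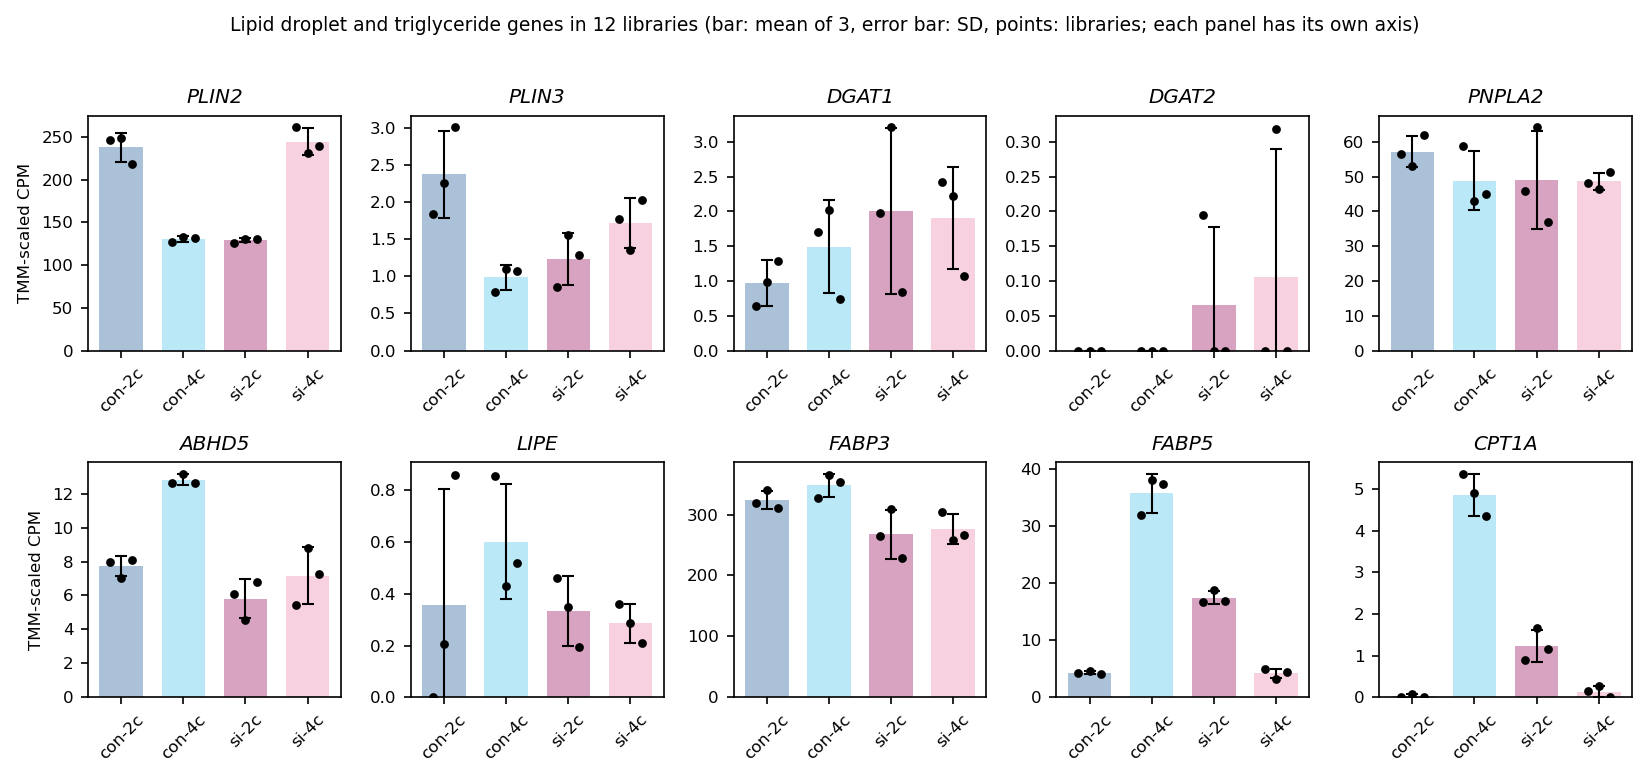
Expression of the 10 genes in TMM-scaled CPM (vertical axis, from 0, with its own scale in each panel) by group, with bars for the mean of 3 libraries, error bars for the SD and points for single libraries. PLIN2 is high in con-2c and si-4c, FABP5 and CPT1A are high in con-4c and intermediate in si-2c, and DGAT2 has counts in only 2 libraries.

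Among the droplet coat genes, PLIN2 (ENSSSCG00000035863, Sscrofa11.1 chr1:203683867-203709277) stood at 247, 248 and 218 CPM in con-2c and at 127, 133 and 132 CPM in con-4c. The si-2c libraries held 126, 131 and 131 CPM, and the si-4c libraries 262, 231 and 239 CPM. The 6 libraries of con-2c and si-4c were thus all above the 6 of con-4c and si-2c. Group means were 238 ± 17.2, 130 ± 3.30, 129 ± 2.63 and 244 ± 15.7 CPM (SD, n = 3) in the order of the libraries above. Con-4c held 1.82-fold less PLIN2 than con-2c (95% interval 1.63 to 2.04, edgeR adjusted p = 1.40e-07) and si-2c 1.84-fold less than con-2c (1.64 to 2.06, adjusted p = 2.06e-07). Si-4c held 1.87-fold more than con-4c (1.67 to 2.09, edgeR adjusted p = 8.20e-08) and 1.89-fold more than si-2c (1.69 to 2.11, adjusted p = 1.25e-07). All 4 differences were under the minimum fold, so PLIN2 was not called in any of them, although its adjusted p was far below the threshold. With libraries scaled by their totals alone, the same PLIN2 differences were smaller, at -0.59, -0.48, 0.65 and 0.54 on the log2 scale (edgeR adjusted p at most 4.75e-05). The neighbouring levels, si-4c beside con-2c and si-2c beside con-4c, overlapped. The RefSeq annotation places a transcribed pseudogene, LOC100737553, over PLIN2, so reads of the pseudogene may be included.

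PLIN3 (ENSSSCG00000038954, chr2:73970149-73995314) was a low-count gene, with 24 to 98 counts per library. The control libraries held 1.84, 2.26 and 3.01 CPM under con-2c, then 0.789, 1.09 and 1.07 CPM under con-4c. The si libraries held 0.852, 1.55 and 1.29 CPM under si-2c, then 1.77, 1.36 and 2.03 CPM under si-4c. Every con-2c library was above every con-4c and si-2c library, and the si-4c libraries overlapped with con-2c and with si-2c. PLIN3 fell by 1.26 on the log2 scale in con-4c versus con-2c (SE 0.35, edgeR adjusted p = 0.0101), a 2.40-fold lower level (1.43 to 4.04). The difference in si-2c versus con-2c was -0.95 (SE 0.35, adjusted p = 0.0503 in edgeR) and was not called. In si-4c PLIN3 was 0.80 above con-4c on the log2 scale (edgeR adjusted p = 0.0907) and 0.48 above si-2c (adjusted p = 0.344).

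The enzymes of the last step of triglyceride synthesis were low throughout. DGAT1 (ENSSSCG00000005918, chr4:452890-463665) had 20 to 120 counts per library and levels of 0.636, 0.980 and 1.29 CPM in con-2c and 1.71, 2.02 and 0.747 CPM in con-4c. In si-2c DGAT1 stood at 1.97, 3.21 and 0.836 CPM, and in si-4c at 2.43, 2.23 and 1.07 CPM. The groups overlapped in every comparison. The largest difference was 1.04 on the log2 scale in si-2c versus con-2c (95% interval -0.028 to 2.11, edgeR adjusted p = 0.141). Replicate 3 was the lowest DGAT1 library in every group but con-2c, and without replicate 3 of si-2c this difference was 1.41 and called (adjusted p = 0.0422 in edgeR). HSF1 overlaps DGAT1 in the RefSeq annotation and had group means of 3.78 to 4.16 CPM, so reads could be assigned to either gene.

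DGAT2 (ENSSSCG00000034102, chr9:10032163-10066082), the other acyltransferase, had a count of 0 in 10 of 12 libraries. The exceptions were replicate 1 of si-2c with 8 counts and replicate 2 of si-4c with 11 counts. A count of 0 over the 3 control libraries allows a level of up to 0.0307 CPM for con-2c and 0.0328 CPM for con-4c, from counting error alone. DGAT2 did not pass the filter and was not tested, and the positive libraries were single libraries of their groups.

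Of the lipolysis genes, PNPLA2 (ENSSSCG00000012841, chr2:513065-517962) held 56.6, 53.1 and 61.9 CPM in con-2c against 58.7, 43.0 and 44.9 CPM in con-4c. The si libraries stood at 45.9, 64.3 and 36.8 CPM under the title 2c and at 48.2, 46.5 and 51.3 CPM under 4c. The ranges overlapped in every comparison except si-4c versus con-2c, where each si-4c library was lower. Group means ran from 48.6 to 57.2 CPM. PNPLA2 was called in no comparison, and its log2 fold change in con-4c versus con-2c was -0.23 (95% interval -0.57 to 0.11, edgeR adjusted p = 0.303). In si-4c versus con-4c the interval of the PNPLA2 difference was -0.35 to 0.33 on the log2 scale, and in si-4c versus con-2c it was -0.57 to 0.10.

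ABHD5 (ENSSSCG00000011297, chr13:27006331-27053760), the co-activator of PNPLA2, stood at 12.6, 13.2 and 12.6 CPM in con-4c. The con-2c libraries held 7.98, 7.04 and 8.11 CPM. Those of si-2c held 6.06, 4.55 and 6.80 CPM, and those of si-4c 5.43, 8.79 and 7.28 CPM. Each con-4c library was above the other 9 libraries. ABHD5 was 1.66-fold higher in con-4c than in con-2c (1.26 to 2.19, edgeR adjusted p = 5.49e-03) and 1.79-fold lower in si-4c versus con-4c (1.36 to 2.36, adjusted p = 2.04e-03), and both differences were under the minimum fold. Scaling by library totals alone brought both just past it, to log2 fold changes of 1.001 and -1.09, so that ABHD5 was called in each, and without replicate 2 of si-4c the latter was called as well (-1.01). The con-2c and si-2c libraries did not overlap, but the difference of -0.41 on the log2 scale did not pass the test (edgeR adjusted p = 0.124) and was -0.0082 by library totals alone. ABHD5 was called in si-2c versus con-4c, where it was 2.204-fold lower (1.67 to 2.91, edgeR adjusted p = 1.00e-03).

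LIPE (ENSSSCG00000003018, chr6:49543671-49560126) was near the detection limit, with 0, 7 and 28 counts in con-2c against 26, 13 and 16 counts in con-4c. The si-2c libraries had 19, 13 and 9 counts and the si-4c libraries 12, 10 and 7. The con-2c libraries covered the range of all the others, and con-4c and si-4c did not overlap. LIPE was called in no comparison, and the standard errors, from 1.03 to 1.05 on the log2 scale between groups, would hide most differences. Another RefSeq gene, ATP5SL, overlaps LIPE. Low values of this table need care, since the count of 4 occurred 12330 times in it and the counts of 3 and 5 only 5957 and 4750 times. Very low counts may therefore be estimates made in the processing of the study.

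FABP3 (ENSSSCG00000036883, chr6:87943003-87950708), the heart-type fatty acid binding protein, held 319, 341 and 311 CPM in con-2c against 327, 364 and 353 CPM in con-4c. The si libraries held 264, 309 and 229 CPM under the title 2c and 304, 258 and 266 CPM under 4c. Each si-4c library was below each control library of both titles, and each si-2c library was below both control groups as well. FABP3 was -0.33 on the log2 scale in si-4c versus con-4c (SE 0.0997, edgeR adjusted p = 0.0143) and -0.28 in si-2c versus con-2c (SE 0.0996, adjusted p = 0.0470), under the minimum fold in each. Between con-4c and con-2c the FABP3 difference was 0.10 (95% interval -0.11 to 0.31, adjusted p = 0.466 in edgeR). These values depended on the scaling, and by library totals alone they were -0.59 (edgeR adjusted p = 3.87e-05), 0.12 (adjusted p = 0.319) and 0.38 (adjusted p = 2.41e-03) in the same order.

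FABP5 (ENSSSCG00000006153, chr4:55277831-55282585), the epidermal-type fatty acid binding protein, was low in con-2c at 4.23, 4.60 and 4.12 CPM and high in con-4c at 31.8, 38.1 and 37.3 CPM. In si-2c it stood at 16.8, 18.7 and 16.8 CPM, and in si-4c at 4.89, 3.27 and 4.42 CPM. The con-4c libraries were all above the si-2c libraries, which were all above those of con-2c and si-4c, and the last 2 groups overlapped. FABP5 rose 8.27-fold in con-4c versus con-2c (6.61 to 10.4, edgeR adjusted p = 1.02e-10) and 4.03-fold in si-2c versus con-2c (3.24 to 5.02, adjusted p = 2.87e-08). It fell 8.53-fold in si-4c versus con-4c (6.82 to 10.7, edgeR adjusted p = 8.34e-11) and 4.16-fold in si-4c versus si-2c (3.34 to 5.18, adjusted p = 2.21e-08).

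CPT1A (ENSSSCG00000012880, chr2:4250642-4293914), the carnitine palmitoyltransferase of the outer mitochondrial membrane, had 0, 3 and 0 counts in con-2c and 163, 148 and 134 counts in con-4c. In si-2c it had 37, 62 and 54 counts, and in si-4c 5, 9 and 0. CPT1A stood at 4.87 ± 0.505 CPM in con-4c and 1.24 ± 0.386 CPM in si-2c (SD, n = 3), and at 0.137 ± 0.131 CPM in si-4c. The order con-4c, si-2c, then the other 2 groups held in every library, and the ranges of con-2c and si-4c overlapped. Over the scaled libraries the 445 counts of con-4c against the 3 of con-2c made a ratio of 159 (95% interval 53.9 to 772), and the 153 of si-2c made a ratio of 39.8 (13.4 to 195). These intervals cover counting error only. All 3 counts of con-2c lay in its replicate 2, and without that library the fitted log2 fold changes went from 7.16 to 10.40 and from 5.18 to 8.43. CPT1A was called higher in both comparisons (edgeR adjusted p = 2.67e-06 and 1.52e-04). It fell 35.3-fold by the counting ratio in si-4c versus con-4c (20.8 to 65.1, edgeR adjusted p = 1.36e-05) and 8.87-fold in si-4c versus si-2c (5.13 to 16.6, adjusted p = 1.78e-03). On the log2 scale the fitted difference in si-4c versus con-4c ran from -5.95 to -4.54 as each library was left out.

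**Figure D2:**
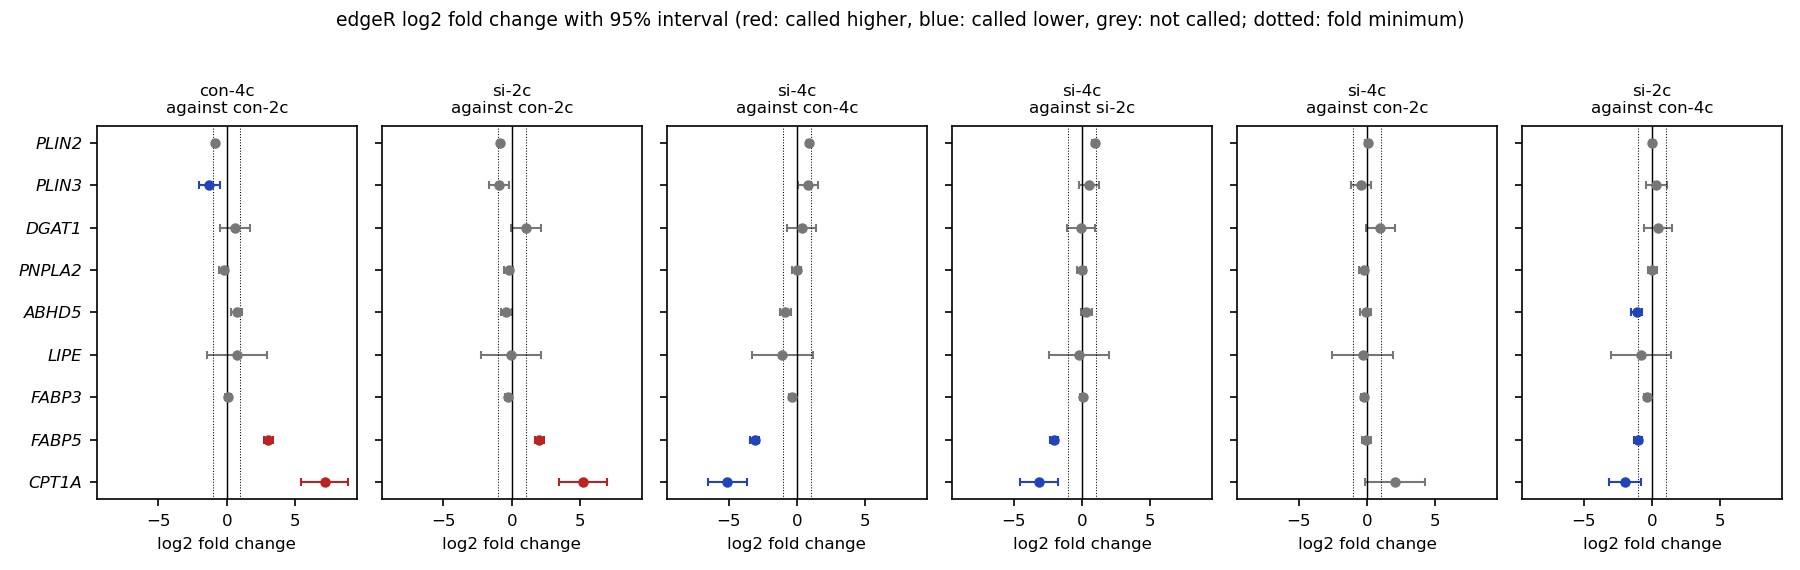
Log2 fold change (horizontal axis) with its 95% interval for the 9 tested genes in 6 comparisons, from edgeR, with dotted lines at a log2 fold change of 1 in either direction. FABP5 and CPT1A pass in 5 of the 6 comparisons and PLIN2 lies just inside the lines in 4. The fitted CPT1A values against con-2c rest on 3 counts, and with libraries scaled by totals alone PNPLA2 changes sign in the first 2 panels, FABP3 in the second and the fourth, ABHD5 in the fourth, LIPE in the second and PLIN2 in the last.

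The interaction was the stage difference of the si libraries minus the stage difference of the control libraries, both by title. Title and tissue label conflict in every library, and an exchange of the stages in a single arm was not tested. The interaction cannot separate such an exchange from an effect of CCNB2 depletion that differs between the titles. Of the 9 tested genes, 2 were called higher in the interaction (9.87% of all genes tested) and 2 lower (22.5%), and the same 4 were those that passed without a minimum fold (18.2% and 27.3% of all genes). FABP5 had an interaction of -5.11 on the log2 scale (SE 0.21, edgeR adjusted p = 5.61e-12) and CPT1A of -10.29 (SE 1.06, adjusted p = 5.00e-07), the latter resting on the 3 counts of con-2c and at -13.53 without its replicate 2. PLIN2 had an interaction of 1.78 (SE 0.11, edgeR adjusted p = 7.33e-10) and PLIN3 of 1.75 (SE 0.50, adjusted p = 8.42e-03). By library totals alone they were 1.13 for PLIN2 and 1.12 for PLIN3, and the call of PLIN3 was lost (edgeR adjusted p = 0.0794). For FABP5, CPT1A and PLIN2, the si libraries differed from the controls in opposite directions under the titles 2c and 4c, with an adjusted p below the threshold in each. PLIN3 had log2 fold changes of -0.95 and 0.80 there, and neither passed. For FABP3 the interaction was -0.058 (95% interval -0.36 to 0.24, adjusted p = 0.777 in edgeR), and for ABHD5 it was -0.43 (-0.99 to 0.13, edgeR adjusted p = 0.207). Both depended on the scaling, since by library totals alone the interaction of FABP3 was -0.71 (edgeR adjusted p = 1.31e-04), under the minimum fold, and that of ABHD5 was -1.08 and called (adjusted p = 6.04e-03).

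The stage difference of the control libraries and that of the si libraries share no library and can be set side by side. It had opposite signs in the 2 arms for 6 of the 9 genes (66.7%), beside 77.0% of all 17995 genes tested, and by library totals alone for 9 of the 9, beside 78.3%. FABP5 was 3.05 in con-4c versus con-2c and -2.06 in si-4c versus si-2c on the log2 scale, and PLIN2 was -0.87 and 0.92. PLIN3 stood at -1.26 and 0.48, a smaller swing in the si arm, and ABHD5 at 0.73 and 0.30. The genes whose signs became opposite with that scaling were ABHD5 (1.001 and -0.081), FABP3 (0.38 and -0.33) and PNPLA2 (0.042 and -0.38).

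**Figure D3:**
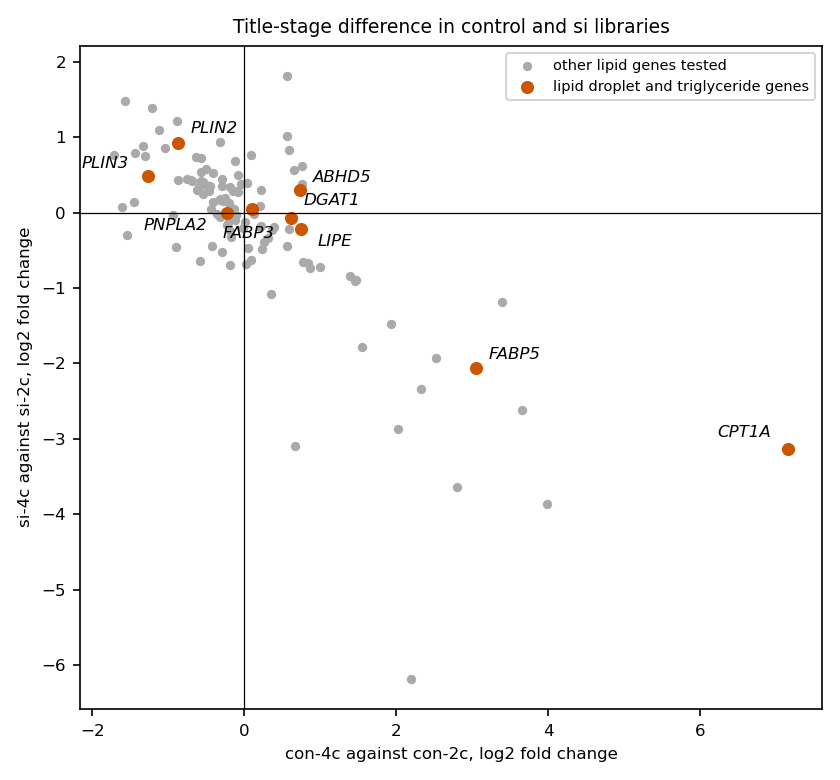
Log2 fold change of si-4c versus si-2c (vertical axis) against that of con-4c versus con-2c (horizontal axis), for the 9 tested genes (orange) and 107 other tested lipid genes (grey). FABP5 and CPT1A lie at the lower right, and PLIN2 and PLIN3 at the upper left.

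The crossed groups, which carry the same stage only when title and tissue label are read against each other, were compared as well. In si-4c versus con-2c, edgeR called 0 of the 9 genes, beside 0.0333% of all genes tested called higher and 0.3% called lower. DESeq2 called 0 of the 9 too, beside 48 higher and 143 lower of all 17995 genes. No gene passed without a minimum fold either (0.106% of all genes higher and 0.567% lower), and 2 of the 9, PNPLA2 and FABP3, did not overlap between these groups (14.1% of all genes). FABP3 alone had an unadjusted p below 0.05 in edgeR (adjusted p = 0.392, log2 fold change -0.23), beside 2033 of all 17995 genes. The PLIN2 difference was 0.038 with an interval of -0.12 to 0.20 on the log2 scale, and that of FABP5 was -0.044 with an interval of -0.37 to 0.28. CPT1A had 14 counts against 3, a ratio of 4.49 (1.25 to 24.4, counting error only), which did not pass the edgeR test (adjusted p = 0.474).

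In si-2c versus con-4c, 3 of the 9 genes were called lower, beside 1.63% of all genes tested, and 0 higher, beside 0.161%. FABP5 was 2.05-fold lower in si-2c (1.68 to 2.51, edgeR adjusted p = 1.34e-04). CPT1A fell by 1.97 on the log2 scale (SE 0.54, adjusted p = 0.0328 in edgeR), from 4.87 to 1.24 CPM, and ABHD5 was the other gene called. FABP3 was lower by a log2 fold change of -0.38, under the minimum fold (edgeR adjusted p = 0.0263), and PLIN2 was level at -0.014 (95% interval -0.18 to 0.15). Without a minimum fold, 4 genes were lower (5.32% of all genes) and 0 higher (2.22%), and 4 of the 9 did not overlap (27.1%). These calls were near their limits. Leaving out replicate 2 of con-4c or replicate 2 of si-2c left 1 call. CPT1A lost its call without any single library of either group (adjusted p from 0.0666 to 0.142 in edgeR), ABHD5 lost it without replicate 2 of si-2c (log2 fold change -0.99), and FABP5 without replicate 2 of con-4c (-0.99) and with scaling by library totals alone (-0.91).

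A ratio of genes within a library does not depend on the scaling between libraries. FABP5 gave 1.33, 1.35 and 1.32 counts per 100 FABP3 counts in con-2c and 9.75, 10.5 and 10.6 in con-4c. The si-2c libraries gave 6.34, 6.06 and 7.34, and the si-4c libraries 1.61, 1.26 and 1.66. Con-2c and si-4c overlapped in this ratio, while con-4c and si-2c each stood apart. PLIN2 gave 436, 468 and 352 counts per 100 PNPLA2 counts in con-2c and 543, 498 and 467 in si-4c. It gave 216, 308 and 294 in con-4c and 275, 203 and 355 in si-2c. Replicate 3 of si-2c was above replicate 3 of con-2c, so these groups overlapped in the PLIN2 ratio, while every con-4c library was below every con-2c library and si-4c was above both con-4c and si-2c.

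**Figure D4:**
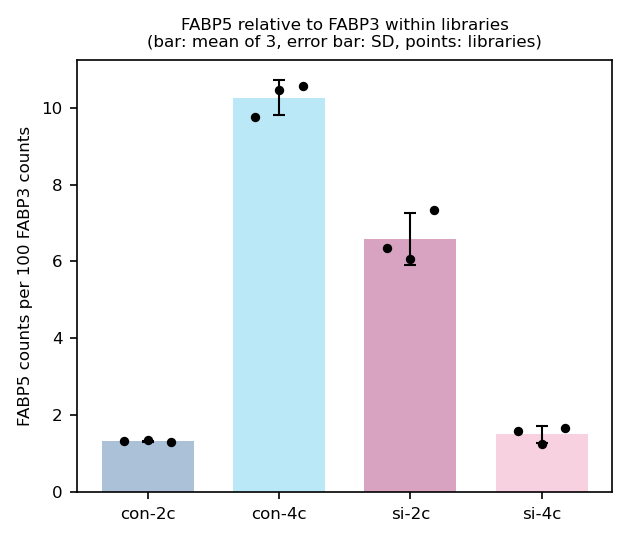
FABP5 counts per 100 FABP3 counts (vertical axis, from 0) by group, with bars for the mean of 3 libraries, error bars for the SD and points for single libraries. The con-4c libraries lie between 9.75 and 10.6, the si-2c libraries between 6.06 and 7.34, and the con-2c and si-4c libraries under 1.7.

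For the 3 genes called in con-4c versus con-2c, the closest profiles among expressed genes with a symbol were found by the root mean square difference of centred log2 CPM over the 12 libraries. The genes nearest to FABP5 were FAM32A (0.0852), H1-3 (0.129) and PRDX6 (0.166). FAM32A had group means of 33.8, 284, 134 and 33.2 CPM for con-2c, con-4c and then si-2c, si-4c, and PRDX6, a peroxiredoxin, 10.6, 104, 42.2 and 10.1. For CPT1A they were TAC1 (0.625), NT5C1B (0.656) and MALSU1 (0.660), a far looser likeness. For PLIN3 they were TBC1D7 (0.240), FEZ1 (0.248) and B3GAT2 (0.253). Candidates had at least 10 CPM in their higher group, so genes as low as CPT1A and PLIN3 were left out. CPT1A had 0 to 9 counts per library in con-2c and si-4c. The part of these limits in its looser likeness was not tested.

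The other genes of the pathway were taken from 7 lists with 138 genes, of which 126 were in the table and 107 were tested. In con-4c versus con-2c, 7 of the 107 were called higher (6.54%) and 9 lower (8.41%), beside 14.4% and 3.25% of all genes tested, and their median log2 fold change was -0.17 against 0.11 over all genes. In si-2c versus con-2c, 5 were called higher and 4 lower, beside 10.7% and 1.8% of all genes, with a median of -0.12 against 0.12. In si-4c versus con-4c, 7 were called higher and 9 lower, beside 3.12% and 15.8%, with a median of 0.21 against -0.11. In the crossed comparisons, edgeR called 0 of the 107 genes. The shares of all genes called higher and lower were 0.0333% and 0.3% in si-4c versus con-2c, and 0.161% and 1.63% in si-2c versus con-4c. In si-4c versus con-2c, 15 of the 107 had an unadjusted p below 0.05 in edgeR, beside 2033 of all 17995 genes. DESeq2 called 0 higher and 2 lower there, beside 48 and 143 of all genes. In si-2c versus con-4c, 21 of the 107 had such a p, beside 3481 of all 17995 genes. DESeq2 called 1 higher and 0 lower there, beside 22 and 341 of all genes. Scaling by library totals alone moved the median of all genes to 0.38, 0.52 and -0.37 in the first 3 comparisons and the share of higher among called genes from 81.6% to 93.4%, from 85.5% to 98.1% and from 16.5% to 6.47%. The medians of the 107 genes then changed sign, to 0.084, 0.28 and -0.046, and in the same order 8, 9 and 3 were called higher (17.9%, 16.8% and 1.29% of all genes with that scaling) and 5, 2 and 11 lower (1.27%, 0.322% and 18.7%).

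Droplet surface and assembly genes had 0 of 17 called higher and 2 lower in con-4c versus con-2c (14.4% and 3.25% of all genes tested), and 2 higher and 0 lower in si-4c versus con-4c (3.12% and 15.8%). In si-2c versus con-2c edgeR called 0 of the 17 in either direction (10.7% and 1.8% of all genes). Without a minimum fold, 1 was higher and 5 lower there (16.6% and 12.3% of all genes). Of the 17, 9 had an unadjusted p below 0.05 in edgeR, and the share over all genes was not computed. DESeq2 called 0, beside 2265 higher and 329 lower of all 17995 genes. Scaling by library totals alone called 2 higher (16.8% of all genes). LDAF1, which assembles droplets together with seipin, fell from 41.4 ± 5.15 CPM in con-2c to 15.3 ± 1.02 CPM in con-4c (n = 3, edgeR adjusted p = 9.43e-06) and was 37.3 ± 11.2 CPM in si-4c (adjusted p = 3.10e-05 against con-4c). FITM2, which promotes the budding of droplets from the endoplasmic reticulum, had group means of 3.90, 1.58, 2.23 and 3.75 CPM in the same order and was called in the same comparisons (edgeR adjusted p = 9.92e-04 and 1.42e-03). With scaling by library totals alone, FITM2 was just under the minimum fold in si-4c versus con-4c (0.99). The list had a median of -0.12 on the log2 scale in con-4c versus con-2c and 0.15 with that scaling, beside 0.11 and 0.38 over all genes. Both genes were high in con-2c and si-4c, as PLIN2 was.

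Of 18 genes of glycerolipid and sterol ester synthesis, 1 rose and 0 fell in con-4c versus con-2c (14.4% and 3.25% of all genes tested), 1 rose and 0 fell in si-2c versus con-2c (10.7% and 1.8%), and 0 rose and 2 fell in si-4c versus con-4c (3.12% and 15.8%). TMEM68, an acyltransferase that makes triglyceride independently of DGAT1 and DGAT2, had means of 9.17 CPM in con-4c and 6.91 in si-2c, beside 1.59 in con-2c and 1.82 in si-4c. The log2 fold changes were 2.52, 2.11 and -2.33 (edgeR adjusted p = 1.31e-07, 1.58e-06 and 2.78e-07). GPAT3, a glycerol phosphate acyltransferase, fell by 1.39 on the log2 scale in si-4c versus con-4c (edgeR adjusted p = 7.87e-03).

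Of 10 lipase genes, 2 rose in con-4c versus con-2c (14.4% of all genes tested), 1 rose in si-2c versus con-2c (10.7%) and 2 fell in si-4c versus con-4c (15.8%), all at low counts. LPL, the lipoprotein lipase, had 121 counts in con-4c and 186 in si-2c, beside 8 in con-2c and 10 in si-4c, and was called in all 3 (edgeR adjusted p = 5.83e-03, 5.56e-03 and 7.87e-03). DAGLB had 7 counts in con-2c and 72 in con-4c (adjusted p = 0.0337 in edgeR), and LIPG had 90 counts in con-4c and 7 in si-4c (edgeR adjusted p = 8.15e-03). LPL and DAGLB reached the filter's minimum (10 counts at the median library size, scaled to each library's total) in no library of con-2c or si-4c, and LIPG in 3 libraries of con-4c, 1 of con-2c and 1 of si-2c, so these genes entered the test through the groups in which they were high. LPL is also among the adipocyte markers.

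Of 9 genes of fatty acid uptake and binding, 2 rose in con-4c versus con-2c (14.4% of all genes tested), and the same 2 rose in si-2c versus con-2c (10.7%) and fell in si-4c versus con-4c (15.8%). SLC27A1, a fatty acid transport protein, had means of 0.300, 1.51, 1.61 and 0.315 CPM for con-2c, con-4c and then si-2c, si-4c (edgeR adjusted p = 1.28e-03, 1.23e-03 and 1.55e-03). FABP7, the brain-type binding protein, had 12, 147, 145 and 19 counts (edgeR adjusted p = 6.18e-03, 0.0169 and 0.0134). Its 12 con-2c counts all lay in replicate 1. SLC27A1 and FABP7 reached the scaled minimum of the filter in every library of con-4c and si-2c but in only 2 and 1 libraries of con-2c and 1 and 1 of si-4c, so they too entered the test through the groups in which they were high.

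Of 22 fatty acid oxidation genes, 1 rose and 2 fell in con-4c versus con-2c (14.4% and 3.25% of all genes tested), 0 rose and 2 fell in si-2c versus con-2c (10.7% and 1.8%), and 2 rose and 2 fell in si-4c versus con-4c (3.12% and 15.8%). By library totals alone the counts were 2 and 1, 2 and 1, and 1 and 2 (17.9% and 1.27%, 16.8% and 0.322%, and 1.29% and 18.7% of all genes with that scaling). ETFA, which passes electrons from fatty acid oxidation to the respiratory chain, had 1123 ± 160 CPM in con-2c and 1137 ± 101 in si-4c, beside 377 ± 25.1 in con-4c and 408 ± 66.7 in si-2c (n = 3), with log2 fold changes of -1.57, -1.46 and 1.59 (edgeR adjusted p = 2.63e-08, 1.14e-07 and 2.34e-08). DECR1, a dienoyl-CoA reductase, stood at 70.3, 32.2, 34.4 and 73.7 CPM and was called in the same directions, but with scaling by library totals alone it was under the minimum fold in all 3 (-0.84, -0.62 and 0.94). ACAA2, the mitochondrial thiolase, went the other way, rising by 1.46 in con-4c and falling by 1.64 in si-4c (edgeR adjusted p = 1.28e-04 and 4.36e-05). ETFB, the partner of ETFA, had 89 counts in con-4c and 5 in si-4c (adjusted p = 5.64e-03 in edgeR). CPT1A thus moved with ACAA2 and against ETFA and DECR1 in con-4c versus con-2c and si-4c versus con-4c.

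Of 13 genes of fatty acid synthesis and desaturation, 0 rose and 2 fell in con-4c versus con-2c (14.4% and 3.25% of all genes tested), 0 rose and 1 fell in si-2c versus con-2c (10.7% and 1.8%), and edgeR called 0 in si-4c versus con-4c (3.12% and 15.8%). DESeq2 also called 0 in si-4c versus con-4c, beside 535 higher and 3208 lower of all 17995 genes. Without a minimum fold, 1 was higher and 1 lower there (15.1% and 21.7%). Of the 13, 5 had an unadjusted p below 0.05 in edgeR, and the share over all genes was not computed. FADS1, a fatty acid desaturase, fell from 4.41 to 1.44 CPM (edgeR adjusted p = 1.59e-03). ELOVL3, a fatty acid elongase, fell by 1.21 in con-4c and by 1.81 in si-2c versus con-2c on the log2 scale (edgeR adjusted p = 7.44e-03 and 4.91e-04), and by library totals alone it was under the minimum fold in con-4c (-0.94).

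Of 18 regulators, 1 rose and 3 fell in con-4c versus con-2c (14.4% and 3.25% of all genes tested), 1 rose and 1 fell in si-2c versus con-2c (10.7% and 1.8%), and 3 rose and 1 fell in si-4c versus con-4c (3.12% and 15.8%). By library totals alone the counts were 1 and 1, 1 and 0, and 1 and 1 (17.9% and 1.27%, 16.8% and 0.322%, and 1.29% and 18.7% of all genes with that scaling). PPARGC1A, a transcriptional co-activator of genes of fatty acid oxidation, had means of 0.759, 5.31, 2.98 and 0.236 CPM, with log2 fold changes of 2.80, 1.97 and -4.47 (edgeR adjusted p = 2.80e-06, 1.53e-04 and 5.04e-08). INSIG1 and SREBF2, both of the sterol-sensing pathway, fell by 1.71 and 1.33 in con-4c and rose by 1.85 and 1.25 in si-4c versus con-4c (edgeR adjusted p = 1.54e-03, 0.0172, 8.22e-04 and 0.0230). PRKAB1, a subunit of AMP-activated protein kinase, fell by 1.05 and rose by 1.07 in the same comparisons, and SCAP fell by 1.04 in si-2c versus con-2c (adjusted p = 0.0338 in edgeR). The calls of SREBF2, PRKAB1 and SCAP were lost with scaling by library totals alone.

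**Figure D5:**
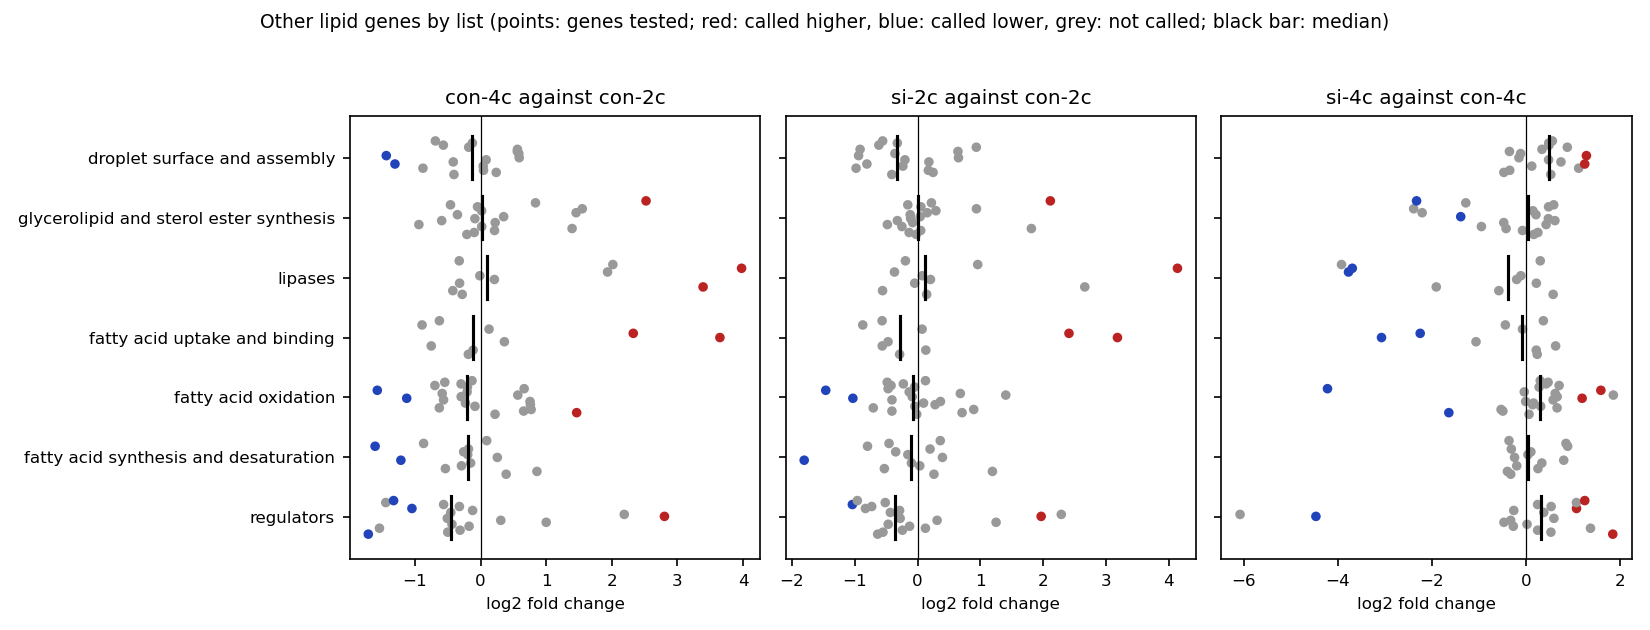
Log2 fold changes (horizontal axis, from edgeR) of the 107 other tested lipid genes by list (vertical axis) in 3 comparisons, with a bar at each list's median. Most genes lie near 0, LDAF1 and FITM2 are the coloured droplet genes, and scaling by library totals alone moves the medians with the median of all genes (to 0.38, 0.52 and -0.37), which changes the sign of the list median for the droplet, uptake, oxidation and fatty acid synthesis lists in the first and second panels, for the regulators in the second, and for the glycerolipid and fatty acid synthesis lists in the third.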

How the data were processed

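Pools of porcine embryos were profiled by SMART-seq, which copies polyadenylated RNA into full-length cDNA and amplifies it. The authors deposited raw counts per Ensembl gene, not normalized. The submitters' processing notes name cutadapt 1.9, HISAT2 2.2.1, StringTie 2.1.6, DESeq2, edgeR and the build Sscrofa11.1, with no role or order. Use of strand and of multi-mapping reads is not given in the sources used here, so overlapping genes are uncertain.

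From these counts, TMM-scaled CPM were computed, and edgeR 4.0.16 under R 4.3.3 was used for the tests (filterByExpr, TMM factors from 0.852 to 1.21, glmQLFit and glmQLFTest on 4 group means over 12 libraries, Benjamini-Hochberg adjustment over 17995 genes, biological coefficient of variation 27.3%). The study used DESeq2, run here as version 1.42.0 as an alternative. SE is the log2 fold change over the square root of F. Profile likeness was taken on log2 CPM (prior count 2) and genes with at least 10 CPM in the higher group.

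Groups came from titles. Labels do not say that replicates came from separate collections, so p-values measure the spread between these libraries. Counts of replicates were further apart than sampling noise allows (chi-square over its degrees of freedom from 7.27 to 38.7), so none was counted as a copy. Amplified reads without molecular identifiers are not independent molecules, and counting intervals and limits from a count of 0 (3 counts) cover counting error only. Genes and lists were chosen with earlier results of these data known. Named were the 10 genes and, per wider list, up to 3 called genes in each direction with the smallest p in con-4c versus con-2c, si-2c versus con-2c and si-4c versus con-4c. Positions are those of RefSeq for Sscrofa11.1. RefSeq gives the span of a gene and not its transcript length, so levels were not compared between genes.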

Additional observations from a re-analysis of the deposited data

Results flagged for a closer look

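In 4 of the 9 tested genes, the difference between si and control libraries under the title 4c was itself different from that under the title 2c, by the interaction term of edgeR. Of these, 2 were called higher and 2 lower, beside 9.87% and 22.5% of all genes tested, so the number called does not set the genes apart. The interaction was -5.11 on the log2 scale for FABP5 and -10.29 for CPT1A (edgeR adjusted p = 5.61e-12 and 5.00e-07), where si libraries were higher than controls under 2c and lower under 4c in every library. It was 1.78 for PLIN2 and 1.75 for PLIN3 (edgeR adjusted p = 7.33e-10 and 8.42e-03), in the opposite direction. Leaving out each library in turn kept the interaction of FABP5 between -5.22 and -4.95, that of CPT1A between -13.53 and -9.72, that of PLIN2 between 1.74 and 1.85, and that of PLIN3 between 1.54 and 1.95. The size for CPT1A is not well determined, since con-2c had 3 counts, all in its replicate 2, and the value of -13.53 is the one without that library. With scaling by library totals alone the interaction of PLIN2 was 1.13, and that of PLIN3 was 1.12 and no longer passed (edgeR adjusted p = 0.0794), while that of ABHD5, at -0.43 otherwise, was -1.08 and passed (adjusted p = 6.04e-03).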

How the results depend on the processing

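The alternatives were DESeq2, scaling by library totals or by DESeq2 size factors, no filter or a mean of at least 10 CPM, only the groups compared, the replicate number as a block, other call thresholds and leaving out each library in turn. Of the values of single genes under these alternatives, 1090 kept their direction and their side of the thresholds, 7 passed them anew, 11 no longer passed, and 43 changed sign, all of genes not called in that comparison.

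With a mean of at least 10 CPM, PLIN3, DGAT1, ABHD5, LIPE and CPT1A were not tested, and the calls were 1 in con-4c versus con-2c, si-2c versus con-2c, si-4c versus con-4c, si-4c versus si-2c and si-2c versus con-4c (FABP5, beside 8.01%, 5.07%, 7.88%, 5.001% and 1.98% of the 6119 genes then tested, in its direction), and 2 in the interaction (PLIN2 higher beside 13.4%, FABP5 lower beside 15.04%). With no minimum fold, 5, 4 and 5 genes were called in the first 3 comparisons. With an adjusted p below 0.01 and a log2 fold change of at least 2, 0 were called in si-2c versus con-4c and 2 in the interaction. The share over all genes was not computed at these thresholds. In si-2c versus con-4c, 4 of the 9 had an unadjusted p below 0.05 in edgeR, beside 3481 of all 17995 genes. DESeq2 at the study's thresholds called 3 lower there, beside 341 lower of all genes. Leaving out a library gave 1 to 3 calls in si-2c versus con-4c.

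Scaling by library totals called DGAT1 in si-2c versus con-2c (1.40, edgeR adjusted p = 0.0382) and ABHD5 in con-4c versus con-2c (1.001), si-4c versus con-4c (-1.09) and the interaction (-1.08), and lost PLIN3 in the interaction (1.12, adjusted p = 0.0794). ABHD5 was also called in si-4c versus con-4c without replicate 2 of si-4c (-1.01), and PLIN3 in si-2c versus con-2c without replicate 1 of con-2c (-1.10). In si-2c versus con-4c, FABP5 missed the minimum fold with only the groups compared (-0.997). The cause was not tested.

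Signs changed under library totals for PLIN2 in si-2c versus con-4c (0.11), PNPLA2 in con-4c versus con-2c (0.042), si-2c versus con-2c (0.16) and the interaction (-0.42), ABHD5 in si-4c versus si-2c (-0.081), LIPE in si-2c versus con-2c (0.22), and FABP3 in si-2c versus con-2c (0.12) and si-4c versus si-2c (-0.33). With at least 10 CPM they changed for PLIN2 in si-2c versus con-4c (0.00024), PNPLA2 in the interaction (-0.013) and FABP3 in si-4c versus si-2c (-0.086), with only the groups compared for PLIN2 in si-2c versus con-4c (0.025), and with no filter for PNPLA2 in si-4c versus con-4c (0.0031). PNPLA2 in si-2c versus con-4c was -0.015 with DESeq2, -0.016 with its size factors and -0.0011 with the block.

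Leaving out 1 library changed signs of differences near 0. In si-4c versus con-2c, PLIN2 ran from -0.045 to 0.075, ABHD5 from -0.28 to 0.059, LIPE from -0.89 to 1.38 and FABP5 from -0.17 to 0.11. In si-4c versus si-2c, DGAT1 ran from -0.44 to 0.45, PNPLA2 from -0.18 to 0.23, LIPE from -0.50 to 0.086 and FABP3 from -0.053 to 0.16. In si-2c versus con-4c, PLIN2 ran from -0.031 to 0.018, DGAT1 from -0.088 to 0.80 and PNPLA2 from -0.24 to 0.17. PNPLA2 ran from -0.087 to 0.15 in si-4c versus con-4c, LIPE from -0.67 to 1.63 in si-2c versus con-2c, and FABP3 from -0.15 to 0.065 in the interaction.

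Replicate numbers did not pair the libraries (18 same-numbered pairs, correlations of deviations from -0.050 to 0.029, none over 0.1). The replicate block changed no call of the 9 genes, and signs changed for DGAT1 in si-4c versus si-2c (0.0063), LIPE in si-2c versus con-2c (0.062) and PNPLA2 (above). Over all genes, si-4c versus con-2c had 6 higher and 54 lower calls in edgeR, 48 and 143 with DESeq2, 21 and 110 with no filter, and 2 and 21 with only its own groups. Genes under a few CPM (PLIN3, DGAT1, DGAT2, LIPE and CPT1A) rest on low counts, and the part of depth in their spread was not tested.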

Other observations

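The RefSeq neighbours of FABP5 within 250 kb were looked at after its values were seen. FABP4, the adipocyte-type binding protein, had 0, 16, 39 and 0 counts for con-2c, con-4c and then si-2c, si-4c, and PMP2 had 0, 22, 49 and 28. PAG1, a membrane adaptor on the other side of FABP5, had 48, 115, 101 and 38 counts. In sum, FABP4 and PAG1 had more counts in con-4c and si-2c than in con-2c and si-4c. For FABP4 this rested on low counts, with 6, 10 and 0 in the con-4c libraries and 5, 7 and 27 in those of si-2c. PMP2 did not separate the groups in this way, with counts that are low in all libraries. The lncRNA LOC106510037, also within 250 kb, was not measured.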
